A study of Mus with 5 samples.

Results

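Inhibitory receptor genes code for proteins that dampen T cell activation. Binding of the transcription factors RARα and BATF was examined at 9 genes listed under this name: Pdcd1, Ctla4, Lag3, Havcr2, Tigit, Cd160, Btla, Cd200 and Cd274. Of these, Cd200 and Cd274 code for ligands. The peaks of the 9 genes, the places where sequenced DNA fragments pile up after immunoprecipitation (ChIP-seq), were all those to which the authors' annotation had assigned a member gene, alone or among several. By this rule 39 of the 27480 peaks in the 4 lists belonged to the 9 genes, out of 12769 gene names in the annotation. There were 24 peaks in the BATF control list, 12 in the BATF list with retinoic acid (RA), 2 in the RARα control list and 1 in the RARα list with RA. The members' BATF RA peaks were thus 50.0% as many as in the control, next to 62.6% for the whole BATF lists (15812 and 9899 peaks), and the whole RARα lists of 1172 and 597 peaks gave 50.9%.

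Inhibitory receptors carry tail motifs that recruit phosphatases and adaptors, or compete with activating receptors for shared ligands, and several appear on the T cell surface after activation and stay on exhausted cells in tumors. BATF is an AP-1 family factor that binds DNA with JUN proteins, often beside IRF4, during effector differentiation. RARα is a nuclear receptor that binds DNA with RXR and whose ligand is RA.

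The cells were CD8 T cells from the spleen of wild-type (WT) mice. Antibodies to CD3 and CD28 together with IL-2 had activated them over 24 h, a rest of 24 h in IL-2 at 100 U/ml followed, and for a last hour (1 h) the cells received either no RA (control) or RA at 50 nM. The labels call them naive CD8 T cells and name a different interleukin for different samples, from IL-7 to IL-10, whereas the protocol describes activated cells in IL-2. The peak lists hold no expression values, so the cell type could not be checked against its markers.

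Each list came from 2 pooled ChIP files and was set against the same normal rabbit IgG file, whose label does not say whether those cells received RA. With 1 list a condition there was no spread between replicates, so no test between conditions could be run. For RARα the control pool had 22655611 fragments and the RA pool 22475060. For BATF the numbers were 23110180 and 16424269, and the IgG file had 11410673. Thus the RA pool for BATF had 71.1% of the depth of its control, while the RARα pools were nearly equal (99.2%). A peak needed a p-value of 0.001 in the RARα lists and of 1e-05 in the BATF lists. Peak numbers can therefore not be compared between the factors.

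BATF peaks were assigned to 6 of the 9 genes in the control (Pdcd1, Ctla4, Tigit, Cd160, Btla and Cd274), where 48.7% of 21900 protein-coding genes had one. With RA they were assigned to 6 genes as well, against 38.3% of protein-coding genes, with Havcr2 in place of Cd160. With so few genes, the control share of 66.7% has a Wilson 95% interval of 35.4 to 87.9, which includes the share of all genes. Such intervals, here and below, cover counting error only. Those on shares of peaks also treat peaks of the same gene as independent. Ctla4 had the most BATF control peaks, 8, followed by Tigit with 6, Btla and Cd274 with 4 each, and Pdcd1 and Cd160 with 1 each. At least 8 peaks were assigned to 2.52% of the 11912 gene names with a BATF control peak, at least 6 to 5.71% and at least 4 to 15.7%.

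In the RA list, Ctla4 had 3 BATF peaks, Btla 3, Tigit 2, Cd274 2, Pdcd1 1, Havcr2 1 and Cd160 0. Of the 6 genes with a control peak, 5 also had one with RA, next to 76.2% of the 11912 gene names. Peaks were fewer with RA at 5 of the 6 genes with a control peak (the number was the same at Pdcd1), a count to be read against 55.6% of all 11912 gene names and against the shallower RA pool. Of the 4 members with at least 4 control peaks, 3 (Ctla4, Tigit and Cd274) had at most 50% as many in the RA list, next to 56.9% of the 1866 such gene names. RARα peaks were assigned to Btla in both conditions, 1 in each, and to Cd274 in the control alone. Lag3 and Cd200 had no peak in any list.

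**Figure D1:**
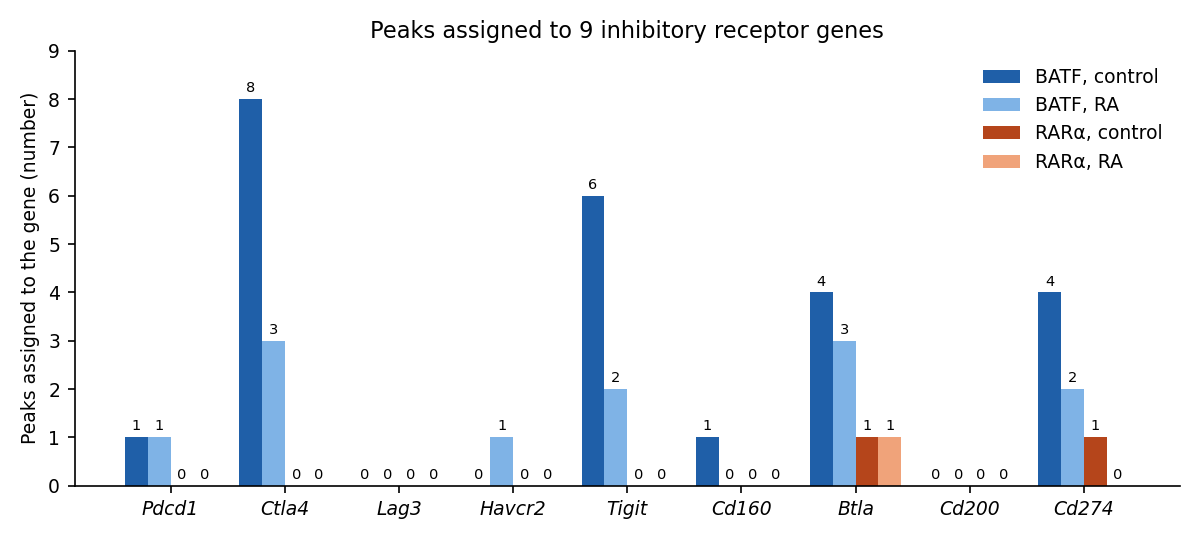
Number of peaks assigned to each of the 9 genes (vertical axis) in each of the 4 lists (bars, with the number above each). Ctla4 and Tigit have the tallest BATF control bars, 8 and 6, and the RARα bars are at 0 for all genes but Btla and Cd274.

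Gene positions below are those of mm10 (GRCm38). Fold enrichment is the number of fragments at the summit, the highest point of a peak, plus 1, over the local IgG level plus 1. The BATF list medians were 5.40 in the control and 5.29 with RA, and a fold of at least 5 was reached by 13 of the members' 24 control peaks (58.4% of all) and by 10 of their 12 RA peaks (56.3% of all). The classes (promoter, exon, intron, intergenic) are those of the deposited annotation. Since the gene table used here gives no strand, distances run from a peak to the nearer end of the gene.

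Pdcd1, which encodes PD-1, the receptor for the ligands made from Cd274 and Pdcd1lg2, lies on chromosome 1 from 94038305 to 94052553. Its 1 BATF control peak, chr1:94035173-94035708, was intergenic, 2597 bp below the lower end of the gene. It had 36 fragments at the summit and a fold enrichment of 5.22. In the RA list the peak at chr1:94035230-94035592 had 23 fragments and the same fold, 5.22. Both were also assigned to Neu4, Gm6086 and Gm9994, but Pdcd1 was the nearest protein-coding gene. No peak lay inside Pdcd1 in the lists examined, and its peak was close to the middle of the BATF control list (46.2nd percentile of fold).

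Ctla4, whose product competes with CD28 for CD80 and CD86, lies on chromosome 1 from 60909025 to 60915832. Its 8 BATF control peaks were spread over 65787 bp, with 3 of them in the gene and 5 intergenic. The strongest, chr1:60913106-60914238, had 168 fragments and a fold of 20.9, above 98.6% of the BATF control peaks. The annotation classed it as exon, while its detailed entry placed it in intron 3 of 3. Such a mismatch was found for 212 of the 481 BATF control peaks classed as exon. Of the 9289 classed as promoter, 5055 had a detailed entry other than promoter. The next strongest, chr1:60908557-60909766, covered the first exon (5' UTR, exon 1 of 4), was classed as promoter and had 68 fragments and a fold of 15.7. One more peak in the gene, chr1:60910567-60912124, had 28 fragments and a fold of 6.23.

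With RA, the intron 3 peak of Ctla4 had 114 fragments and a fold of 19.0, and the first-exon peak had 53 fragments and a fold of 16.3. At the third site in the gene the RA peak was short, chr1:60911584-60911898, with 15 fragments and a fold of 4.13, and its summit lay 947 bp from that of the control. None of the 5 intergenic control peaks was overlapped by an RA peak. Their folds ran from 3.09 to 5.06 and their summits held 19 to 26 fragments, so that the Ctla4 peaks without an RA counterpart were its weaker ones. The farthest were 33046 bp below and 25052 bp above the gene, and the latter was nearer to Icos, the neighboring costimulatory receptor gene.

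Lag3, which encodes a receptor for MHC class II, lies on chromosome 6 from 124904359 to 124912434. The nearest BATF peak was 18215 bp away in the control (fold 6.42) and 18974 bp away with RA (fold 4.96), and both were assigned to Mlf2. The nearest RARα control peak was 162857 bp away. Within 100 kb of Lag3 there were 5 BATF control peaks and 6 with RA, none of them assigned to it.

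Havcr2, which encodes TIM-3, lies on chromosome 11 from 46454931 to 46481255. It was the member with a BATF peak in the RA list and none assigned to it in the control, a pattern seen for 2.97% of the 9356 gene names with a BATF RA peak. The RA peak, chr11:46474300-46474544, was in intron 5 of 6 and had 20 fragments and a fold of 6.30 (68.3rd percentile of its list). The nearest BATF control peak to it was 25640 bp away, whereas 6.39% of all BATF RA peaks had no overlapping control peak and 3.75% had none within 5 kb. At the same density, the deeper control pool would have held 27.8 fragments there, with a -log10 p of 16.5, above the cutoff of 5. The same held for 100% of the 633 BATF RA peaks with no overlapping control peak, and a summit is chosen for its height in 1 pool. A peak called in the smaller pool passes when scaled to the deeper one, so this projection could not fail. It therefore cannot tell whether the density at Havcr2 differed between the conditions. Within 100 kb of the gene, with the gene itself counted in, there were 16 BATF control peaks and 7 with RA. The nearest of the control peaks was 6271 bp from the gene, was assigned to Mir6989 and had a fold of 3.53.

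Tigit, which encodes a receptor for CD155 (the product of Pvr), lies on chromosome 16 from 43626137 to 43665125. Its strongest BATF control peak, chr16:43655002-43655598 in intron 3 of 3, had 69 fragments and a fold of 13.8, above 95.4% of the list. With RA the same place held 60 fragments in the smaller pool, with a fold of 15.7. This intron was the only site inside Tigit. The other 5 control peaks were intergenic, 25096 to 43912 bp above the gene, and each was also assigned to Zbtb20, Mir568 and Drd3. Among these, only the farthest was overlapped by an RA peak. Its fold was 7.76 in the control (37 fragments) and 4.64 with RA (16 fragments), and it was nearer to Drd3 than to Tigit. The remaining 4 had 18 to 38 fragments and folds from 2.96 to 6.40. The lowest of these folds went with 38 fragments over an IgG level of 12.0, which was 2.63 times the list median.

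Cd160 and Btla encode receptors for HVEM, the product of Tnfrsf14. Cd160 lies on chromosome 3 from 96798763 to 96829351 and had 1 BATF control peak, chr3:96813082-96813336, classed as promoter with a detailed entry of intron 1 of 4. It held 21 fragments with a fold of 3.34, above 6.62% of the list, and had no counterpart with RA. At the same density, the RA pool would have given it a -log10 p of 4.74, under the cutoff of 5, which held for no other of the members' BATF control peaks (the next lowest was a Ctla4 peak at 5.22).

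Btla lies on chromosome 16 from 45223705 to 45252895 and had 4 BATF control peaks, 3 of which had an RA counterpart. The highest fold of any member was at its last exon, where the peak at chr16:45251792-45252284, in the 3' UTR (exon 6 of 6), had 105 fragments and a fold of 27.1, above 99.3% of the list. With RA it had 59 fragments and a fold of 19.0. The peak over the start site, chr16:45223493-45224796, went from 42 fragments and a fold of 10.4 to 20 fragments and 6.67. The peak at chr16:45204376-45204788, 18917 bp below the gene, had 56 fragments and a fold of 14.1 in the control and 37 fragments and 12.6 with RA. The weakest, at chr16:45222665-45223090 and 615 bp below the gene, had 23 fragments, a fold of 4.74 and no RA counterpart. Btla thus had strong peaks at both ends and another outside, where the RARα peaks were also found.

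Cd200 encodes a membrane glycoprotein that signals to its receptor CD200R on other cells, and Cd274 encodes PD-L1, a ligand of PD-1. Cd200, on chromosome 16 from 45382111 to 45409060, had no BATF peak within 100 kb in either condition, and in the control the nearest was the 3' UTR peak of Btla, 129827 bp away. Cd274 lies on chromosome 19 from 29362107 to 29388095 and had 4 BATF control peaks. Those at chr19:29367144-29368292 (intron 1 of 6, classed as promoter) and chr19:29391161-29391546 (3066 bp above the gene) had 56 and 47 fragments and folds of 9.33 and 6.77. With RA they had 32 and 38 fragments and folds of 7.18 and 8.48. A pair of weaker control peaks in the same intron, at chr19:29371427-29371922 and chr19:29372266-29372624, had 20 and 19 fragments, folds of 4.76 and 4.88, and no RA counterpart. The latter was classed as exon, though its detailed entry placed it in the intron. At the lower end of Cd274, chr19:29361658-29362281 (26 fragments, fold 6.48) in the control and chr19:29361958-29362226 (11 fragments, fold 3.79) with RA reached into the gene but were assigned to its neighbor Plgrkt alone, and so are not among the member peaks. The intergenic peak was assigned to 6 genes, among them Pdcd1lg2, which encodes the other ligand of PD-1, and Jak2.

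**Figure D2:**
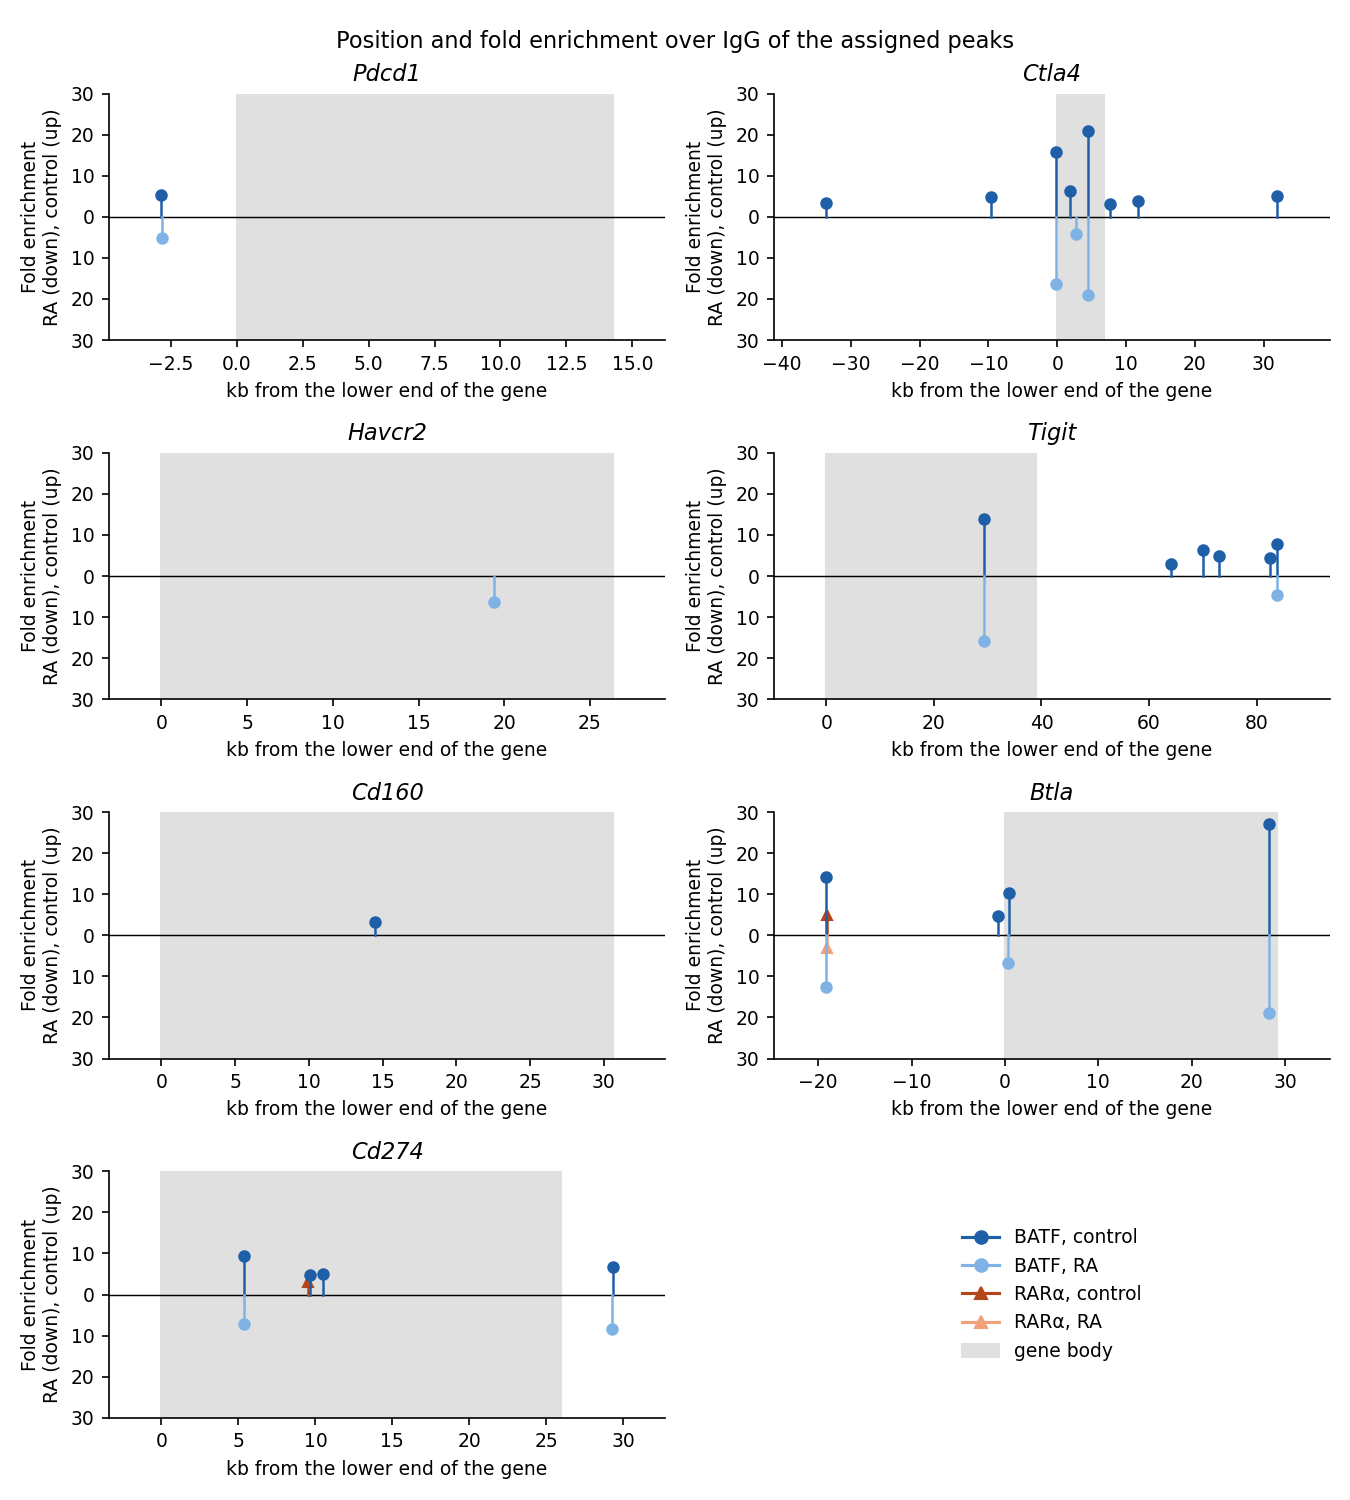
Position of each assigned peak's summit in kb from the lower-coordinate end of its gene (horizontal axis) and its fold enrichment (vertical axis), control upward and RA downward, for the 7 genes with a peak. Grey marks the gene body, circles BATF and triangles RARα. The tall BATF peaks in and near Ctla4, Tigit, Btla and Cd274 appear on both sides of the line, while most short control peaks have no mirror image.

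To ask whether BATF occupancy differed at the sites found in both conditions, the 11 control peaks with an overlapping RA peak (at least 1 bp) were compared one by one, with the fragments at the summit expressed per 1000000 fragments of the pool (normalized fragments) to allow for depth. Normalized fragments went from 7.27 to 6.94 at Ctla4 intron 3, a ratio of RA over control of 0.95 with an exact 95% counting interval of 0.75 to 1.22. At the first exon of Ctla4 the ratio was 1.10 (0.75 to 1.59), and at Tigit intron 3 it was 1.22 (0.85 to 1.75), from 2.99 to 3.65. These 3 strong sites differed by less than the counting error.

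The lowest ratios were 0.61 (0.32 to 1.12) at the distal Tigit peak, 0.67 (0.37 to 1.17) at the Btla start site and 0.75 (0.37 to 1.46) at the third Ctla4 site in the gene. At this Ctla4 site the summits were 947 bp apart, so the ratio sets 2 positions against each other. In 10 of the 11 pairs the summits were within 250 bp. At the Btla 3' UTR, normalized fragments of 4.54 and 3.59 gave 0.79 (0.56 to 1.10). The Btla peak below the gene gave 0.93 (0.60 to 1.43), and that of Pdcd1 0.90 (0.51 to 1.56). For Cd274, the ratio was 0.80 (0.50 to 1.26) in intron 1 and 1.14 (0.72 to 1.78) above the gene. All 11 intervals included 1, so no site differed beyond the counting error.

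Normalized fragments were lower with RA at 8 of the 11 sites, next to 77.0% of the 8605 overlapping pairs of the whole list, and at least 1.5 times lower at 1 site, next to 17.2%. By fold enrichment, 8 sites were lower as well, next to 75.3% of all pairs, and 3 were at least 1.5 times lower, next to 22.2%. Among the 8 was Pdcd1, whose fold was 5.22 in both lists and lower with RA only before rounding. Without the added constant of 1, 7 sites were lower, next to 66.9%. The median ratio was 0.90 by normalized fragments and 0.89 by fold for the members, and 0.84 and 0.83 for all pairs. The members' counts were thus near those of BATF sites in general. They include the third Ctla4 pair, whose summits were 947 bp apart and whose ratio was 0.75, or 0.66 by fold.

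**Figure D3:**
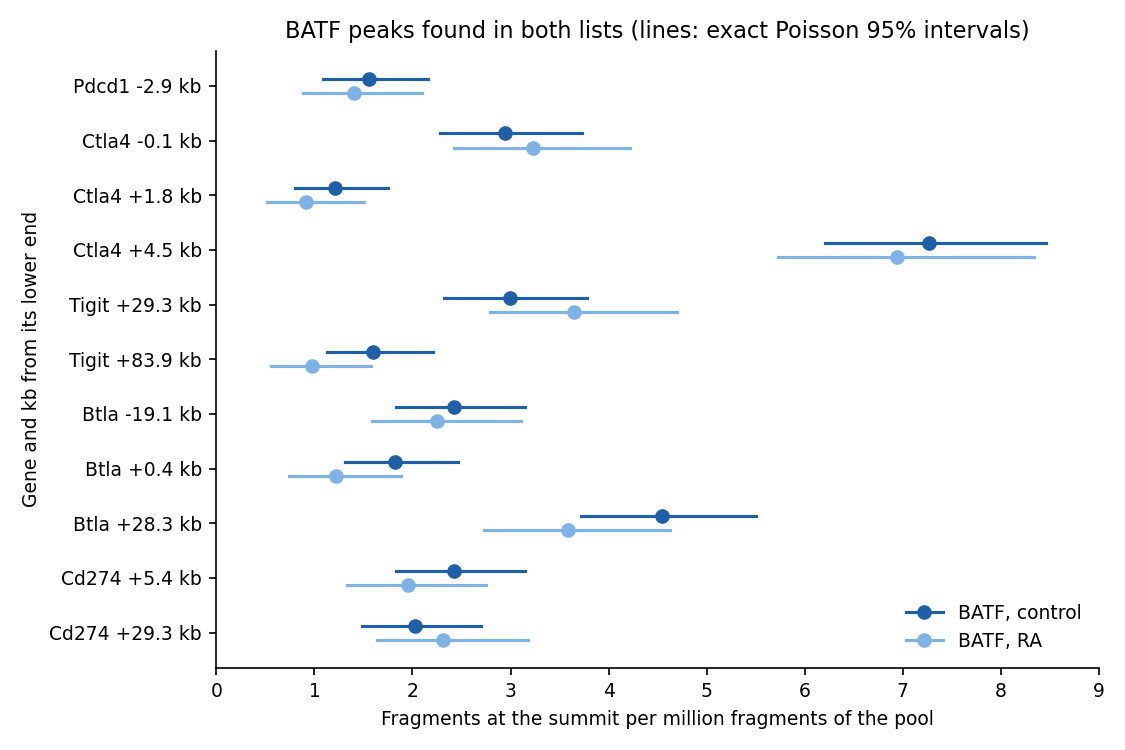
Fragments at the summit per 1000000 fragments of the pool (horizontal axis) for the 11 BATF sites found in both lists, named by gene and by the distance of the control summit from the gene's lower end. Points are the values and lines the exact Poisson 95% intervals. The control and RA lines overlap at all 11 sites, and Ctla4 at 4.5 kb has the highest level in both. For Ctla4 at 1.8 kb, the control and RA summits are 947 bp apart.

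The 11 overlapped peaks were 45.8% of the members' 24 BATF control peaks (Wilson interval 27.9 to 64.9), next to 54.4% of all 15812. They were mostly the stronger ones, and their folds ran from 5.22 to 27.1 (median 10.4), against 2.96 to 6.40 (median 4.73) for the other 13. The ranges thus overlapped in part. In the whole list the medians were 6.72 and 4.52. At a fold of at least 5, 11 of the members' 13 peaks were overlapped, next to 73.1% of all peaks of that strength. Below it, 0 of 11 were, next to 28.2%. With an RA peak allowed within 5 kb, 16 of the 24 had one, next to 69.9%.

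Depth alone was also set against these counts. If each control site had kept its density in the smaller RA pool, 12 of the 13 peaks with no counterpart would still have had a -log10 p of 5 or more (range of the 13, 4.74 to 11.0), next to 87.5% of the 7207 such peaks in the whole list. The 11 with a counterpart would have had 11.2 to 117. Since a control summit was picked for being high in that pool, this projection can overstate the density, and its part in the count was not tested. The projection also leaves out the counting scatter of the RA pool. The median of the 13 was 6.87, so at an unchanged density some could still fall under 5. How many peaks were missed through depth therefore cannot be read from it.

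**Figure D4:**
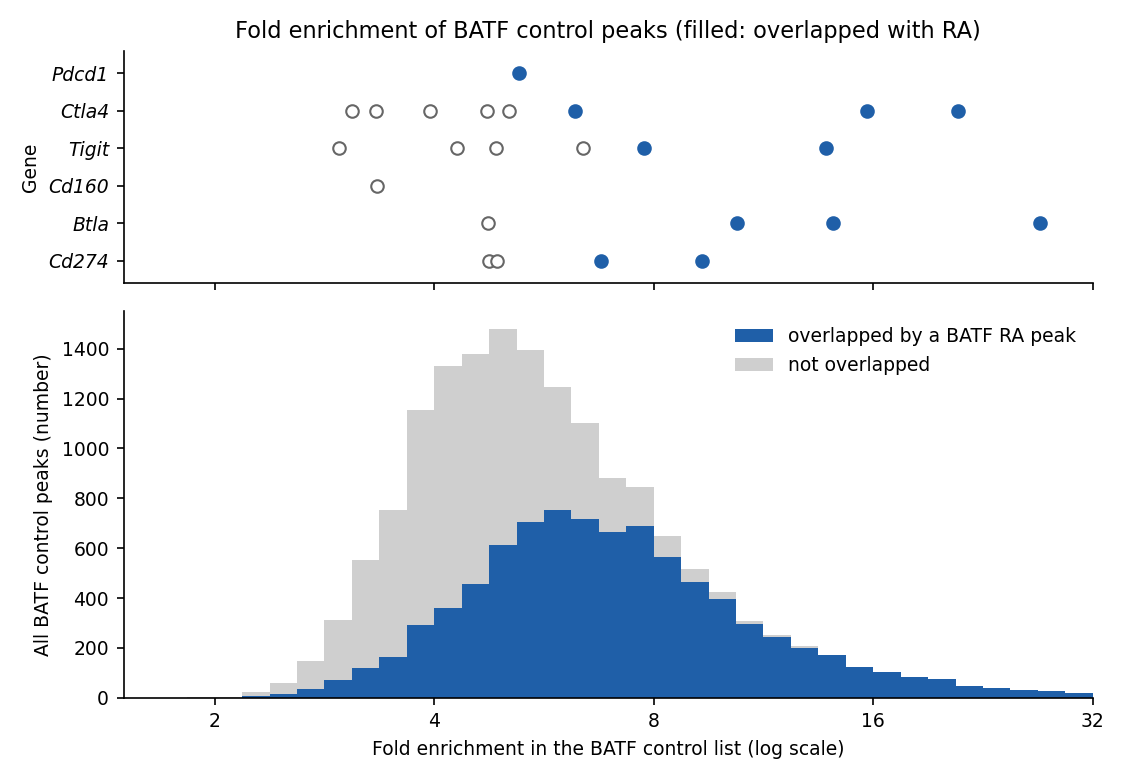
Top, fold enrichment in the BATF control list (horizontal, log scale) of the members' 24 peaks by gene, filled where an RA peak overlapped and open where none did. Bottom, the number of all BATF control peaks at each fold, stacked with the overlapped ones in blue, without the 61 peaks above 32. Filled circles begin at 5.22 and open ones end at 6.40, and in the whole list the blue share is likewise larger at high fold.

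RARα peaks of the members lay at 2 places, and both were also BATF peaks. Of the 1172 RARα control peaks, 53.4% were overlapped by a BATF control peak, so overlap was common in that list. Read from BATF, 2 of the members' 24 control peaks were overlapped by a RARα control peak (3.92% of all) and 1 of their 12 RA peaks by a RARα RA peak (0.727% of all). Of these 2 control peaks, 1 (Btla) also had a BATF RA counterpart, next to 77.3% of the 620 such peaks. At the place below Btla, RARα had 33 fragments (exact Poisson 95% interval 22.7 to 46.3) and a fold of 4.89 in the control, at chr16:45204480-45204757. With RA it had 17 fragments (9.90 to 27.2) and a fold of 3.04, at chr16:45204339-45204724. The summits were 43 bp apart. In normalized fragments this was 1.46 and 0.756, a ratio of 0.52 with an interval of 0.27 to 0.96, which does not include 1. This interval covers counting error in 2 pools only and was not adjusted for the number of sites looked at. Each summit was also picked for its height in its own pool. No ratio over the 99 RARα control peaks with an overlapping RA peak is given here, so the lower value cannot be called particular to this site.

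At the same place the BATF peaks had 2.42 and 2.25 normalized fragments, with summits 45 and 53 bp below the RARα control summit. Peaks of all 4 lists thus met there, which held for 48 of the 1172 RARα control peaks (4.10%). The overlap of the RARα control peak with a RARα RA peak was likewise uncommon in the list (8.45%). The RA peak was weak, with a -log10 p of 5.36 and a -log10 q of 0.624, and the IgG level there was 1.96 times the list median in the RARα control list. The site was assigned to 4 genes, Slc35a5, Ccdc80, Btla and Atg3, of which Atg3 was nearer than Btla (15942 and 18948 bp from the RARα control peak).

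In intron 1 of Cd274, the RARα control peak at chr19:29371580-29371842 had 13 fragments (6.92 to 22.2), a fold of 3.11 and a -log10 q of 0.555. It overlapped the BATF control peak of 20 fragments described above, whose summit was 175 bp away. With RA neither factor had a peak there. The nearest RARα peak was 1345280 bp away and the nearest BATF peak 3718 bp away. Projected to the RA pool, the RARα peak would have had a -log10 p of 4.14, above its cutoff, but the interval on 13 fragments is wide.

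**Figure D5:**
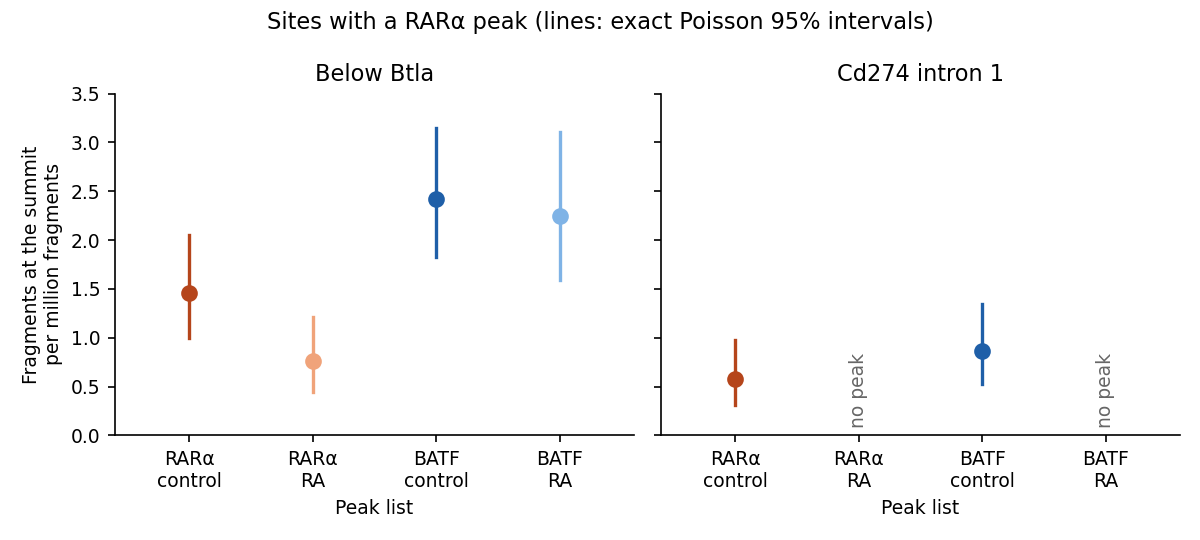
Fragments at the summit per 1000000 fragments of the pool (vertical axis) at the 2 places with a RARα peak, in each of the 4 lists, with exact Poisson 95% intervals as lines. Below Btla, RARα is lower with RA (0.756) than in the control (1.46) while the BATF values are 2.42 and 2.25. In Cd274 intron 1 both RA lists have no peak.

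By position, 10 of the members' 24 BATF control peaks were inside the gene, 6 were within 10 kb of it (615 to 9461 bp) and 8 were farther away (18917 to 43912 bp). Over all 23391 pairs of a protein-coding gene and a BATF control peak assigned to it, the shares were 55.8% inside, 9.57% within 10 kb and 34.7% farther away. With RA the members' numbers were 8, 2 and 2 of 12, next to 58.6%, 10.1% and 31.4% of 14185 pairs. By class, 13 of the 24 control peaks were intergenic (54.2%, 35.1 to 72.1), whereas 18.1% of all BATF control peaks were. However, an intergenic peak is usually assigned to several genes, and 42.6% of all 25980 pairs of a gene and a peak in that list were with an intergenic peak, a share within the members' interval. That interval takes the 24 peaks as independent, although 8 belong to Ctla4 and 6 to Tigit, so it can be too narrow. Promoter peaks numbered 6 (25.0%, 12.0 to 44.9), next to 43.1% of such pairs. With RA, 4 of the 12 were intergenic and 3 at promoters, next to 38.2% and 49.4% of the pairs in that list. Of the members' control peaks, 12 named another gene as well, next to 52.5% of the 23391 pairs. Inside the gene body 7 of 10 had an RA counterpart, and outside it 4 of 14, next to 58.6% and 45.2% of the pairs of each kind. Among intergenic peaks 4 of 13 had one (47.9% of all intergenic BATF control peaks), and among the others 7 of 11 (55.9%).

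Genes of the same pathway were read from a list of 24, with 9 ligands and counter-receptors, 10 further receptors with inhibitory tails and 5 intracellular signaling proteins (phosphatases, an adaptor and the kinase Csk). The list was chosen with earlier results of these data known, so its shares are description and were not tested against those of all genes. BATF control peaks were assigned to 21 of the 24 genes, 56 peaks in all, next to 48.7% of protein-coding genes. BATF RA peaks were assigned to 16 genes, 28 peaks in all, next to 38.3%, and these 16 genes were all among the 21. The 3 genes with neither were Fgl1 (a ligand of LAG-3), Cd200r1 (the receptor for CD200) and Sh2d1a. By role, 7 of the ligands, 10 of the receptors and 4 of the intracellular proteins had a BATF control peak, and 6, 7 and 3 had one with RA.

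Csk, the kinase that holds SRC family kinases inactive, had the most, with 8 BATF control peaks and 4 with RA (highest fold 12.8 and 7.94). Pvr followed with 5 and 3 (7.52 and 4.80), then Klrc1, which encodes the receptor NKG2A, with 4 and 2 (9.88 and 12.4), and Cd5, a receptor that dampens T cell receptor signaling, with 4 and 1 (7.08 and 7.43). The highest BATF fold in the pathway list was at Inpp5d, which encodes the lipid phosphatase SHIP-1, with 32.7 in the control and 35.0 with RA. RARα control peaks were assigned to 7 of the 24 genes, where 7.18% of all protein-coding genes had one, and RARα RA peaks to 3, next to 3.19%. These shares of a chosen list were likewise not tested. In the control, the RARα folds were highest for Lilrb4a (8.55, Lilrb4 in the annotation) and Inpp5d (7.47). They were 4.05 for Pecam1, 4.04 for Cd5, 4.02 for Cd244a (Cd244 in the annotation), 2.93 for Ptpn6 (the phosphatase SHP-1) and 2.83 for Pvr. The Lilrb4a and Cd244a peaks were intergenic, 36056 and 42618 bp from the gene, and the Ptpn6 peak lay 2300 bp from it. The others were inside the gene. Of the 7 RARα control peaks, all but that of Pecam1 overlapped a BATF control peak, next to 53.4% of the whole RARα control list. With RA, the RARα peak of Lilrb4a, 36135 bp from the gene, had a fold of 3.44 and that of Inpp5d 3.29. Both overlapped a BATF RA peak, next to 12.1% of all 597 RARα RA peaks. The peak of Cd96 had a fold of 3.29, lay 85308 bp from the gene and overlapped none. Several of these RARα peaks were small. The 7 control peaks held 10 (Pvr) to 33 (Lilrb4a) fragments at the summit. The 3 RA peaks held 12 (Cd96 and Inpp5d) or 16 (Lilrb4a), and the lowest count in both RARα lists was 9.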

How the data were processed

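RARα and BATF ChIP-seq peaks in mouse CD8 T cells, with or without RA, were taken from 4 deposited peak lists. The submitters' processing notes name Bowtie2, MACS 2.2.7.1, HOMER and mm10 (GRCm38). The authors called peaks on 2 pooled files per condition against 1 IgG file, by paired-end fragments. Whether the 2 files are replicates or repeat runs is not given in the sources used here. The deposited pileup is a signal, the fragments at the summit, and in the BATF control list it had been scaled to 0.9875 per fragment, which was undone to recover whole fragments. The fold enrichment deposited by the authors is the ratio of that signal to the IgG level, with 1 added to each. The deposited p-value and q-value are on the -log10 scale. The authors' annotation gave genes and classes, and a RefSeq table for GRCm38.p6 gave gene positions.

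Members and lists were chosen with earlier results of these data known. All 9 genes and all their peaks are reported. From the pathway list, genes with a RARα peak or with the most BATF control peaks were named (3 ranks, the last a tie). The genes with no BATF peak were named after their values were seen. Overlap required at least 1 bp. Intervals on fragments are exact Poisson ones, those on ratios exact conditional ones and those on shares Wilson ones, all at 95%. For the projection to another depth, fragments and IgG level were scaled to the other pool and the Poisson p-value was recomputed. Recomputed and deposited p-values differed by a median of at most 0.0011 on the -log10 scale. The overlap and pairing steps, the Poisson p-value and the intervals on fragments and ratios were tested on simulated data. The tools were scipy 1.17.1, pandas 2.3.3 and numpy 2.4.6 under Python 3.11.15, with matplotlib 3.10.9 for figures. The alternatives were stricter fold, p-value or q-value thresholds, other rules of overlap, peaks near the gene only, and fold without the constant. DNA sequence was not analysed here.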

Additional observations from a re-analysis of the deposited data

How the results depend on the processing

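The share of members' BATF control peaks with an RA counterpart, 45.8%, was 69.2% with a fold of at least 5 in both lists (9 of 13), which also left 13 control peaks in place of 24, and 66.7% with an RA peak within 5 kb. The RARα control peaks went from 2 to 1 at a p-value of 1e-05, at a q-value of 0.05 and within 10 kb of the gene, and the RARα RA peak of Btla was not counted (0 peaks) at a q-value of 0.05 or within 10 kb. At a p-value of 1e-05, 1 RARα control peak was overlapped by a BATF control peak. Within 10 kb of the gene, 31.2% of BATF control peaks were intergenic. The fold ratio at Pdcd1, 1.00 (5.22 in both lists, lower with RA before rounding), was 1.08 without the added constant. The other 38 of 49 recomputed values stayed within the limits set for them. No paired analysis was possible because each condition has 1 pooled list. The planned search for motifs was not run, since no genome was used here. Depth, 1 IgG file and pooling limit all values.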
